A study of Mus musculus with 18 samples.

Results

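The VEGF ligands, receptors and neuropilins were followed in bone marrow mesenchymal stem cells (MSCs) of young and old mice. The group was chosen by name, and comprised 9 of the 27179 genes listed, namely the ligands Vegfa, Vegfb, Vegfc and Pgf, the receptor tyrosine kinases Flt1, Kdr and Flt4, and the neuropilins Nrp1 and Nrp2. Vascular endothelial growth factors are secreted proteins that bind receptor tyrosine kinases, chiefly on endothelial cells, and so drive the sprouting, survival and permeability of blood and lymphatic vessels. Neuropilins bind both VEGF and class 3 semaphorins, and act as co-receptors without kinase activity of their own. MSCs are known as a source of VEGF that acts on neighbouring cells, whereas the receptors Kdr and Flt4 are best known from endothelium.

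RNA was sequenced from 18 cultures of primary MSCs of male C57BL6 mice, in 3 groups of 6 libraries. Young MSCs came from mice of 6 weeks and old MSCs from mice of 18 to 24 months, and both were grown alone for 7 days. Rejuvenated old MSCs were old MSCs kept for those 7 days in a Transwell with young MSCs, at 100000 cells per well, behind a membrane with pores of 0.4 µm through which secreted factors but not cells could pass. The cells were adherent marrow cultures that were not sorted before sequencing as far as the methods state. Old MSCs cultured with other old MSCs were not analysed here, so an effect of sharing a well and an effect of the young donors cannot be told apart. The labels call the replicates biological without naming mice, so p-values measure the spread between these cultures.

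The libraries held 22936251 to 29559194 reads on genes, and 22936251 to 25648769 in the young group. Values are normalized counts, that is, reads per gene divided by a size factor for each library. In bulk RNA, fewer cells of a type and less RNA per cell cannot be told apart. The marrow stromal markers Pdgfra, Pdgfrb, Col1a1 and Col3a1 were abundant in all groups, with group means of 4075 to 109095 normalized counts. Thy1 fell to at most 3.23 in any old library from 198 ± 23.1 (SD, n = 6) in young MSCs, and Eng averaged 163 in young against 7340.3 in old MSCs. Nt5e averaged 295 in young and 15.9 in old MSCs, Cd44 2137 and 2954, and Vcam1 928 and 6408. Summed macrophage markers (12 genes) ran from 922 to 1036 in young, 15351 to 19351 in old and 15401 to 18687 in rejuvenated old libraries, and Ptprc and Adgre1 had 0 reads in all young libraries. The summed endothelial markers (14 genes) ran from 386 to 477 in young, 346 to 379 in old and 358 to 409 in rejuvenated old libraries. Of these 14, Cldn5 and Sox17 were at 0 in every library and Cdh5, Tie1 and Robo4 stayed under 5 normalized counts, whereas Plvap, Erg, Esam and Pecam1 had higher means in young MSCs and Vwf and Egfl7 in old MSCs. Rejuvenated old replicate 1 stood apart from its group. Over 58 genes with at most 3 reads in every old library and a mean of at least 100 normalized counts in young MSCs, chosen after the values were seen, it summed to 864 normalized counts beside 59.6 to 85.9 in the other 5 rejuvenated old libraries, 38.5 to 53.9 in old libraries and 41868 to 44611 in young libraries, and it was the highest of its group for 51 of the 58. The source of these reads was not tested. Without this library the 8 members tested had the same calls as with it in all 3 comparisons.

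The 3 ligand genes that rose in old MSCs after co-culture were Vegfa, Vegfb and Vegfc, and the 250 bases before their annotated start are shown with GC boxes (GGGCGG on either strand) in capitals. A GC box is the short element bound by Sp1-type factors, which are known regulators of VEGF genes. The sequences are those of RefSeq on GRCm38.p6, written 5′ to 3′ along the strand of the gene, and come from chr17:46032378-46032627 (minus strand) for Vegfa, chr19:6987652-6987901 (minus strand) for Vegfb and chr8:54077282-54077531 (plus strand) for Vegfc.
Vegfa: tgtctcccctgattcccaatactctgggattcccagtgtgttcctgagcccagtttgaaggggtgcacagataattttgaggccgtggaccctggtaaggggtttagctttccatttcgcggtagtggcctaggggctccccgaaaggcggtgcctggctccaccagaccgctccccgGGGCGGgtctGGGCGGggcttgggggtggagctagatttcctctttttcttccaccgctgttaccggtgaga
Vegfb: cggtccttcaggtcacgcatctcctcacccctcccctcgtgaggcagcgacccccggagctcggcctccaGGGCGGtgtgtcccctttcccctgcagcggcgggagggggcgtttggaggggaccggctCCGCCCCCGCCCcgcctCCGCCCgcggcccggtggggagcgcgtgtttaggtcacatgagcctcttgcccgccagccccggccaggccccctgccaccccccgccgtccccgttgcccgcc
Vegfc: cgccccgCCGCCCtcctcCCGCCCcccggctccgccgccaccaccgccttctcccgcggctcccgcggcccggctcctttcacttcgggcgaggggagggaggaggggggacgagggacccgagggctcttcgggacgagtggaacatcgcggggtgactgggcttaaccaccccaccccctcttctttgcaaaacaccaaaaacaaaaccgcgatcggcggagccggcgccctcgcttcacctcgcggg
The Vegfb window held 4 GC boxes, of which 2 were adjacent, and the Vegfa and Vegfc windows held 2 each. All 9 members had a window before an annotated RefSeq start, and all 9 held at least 1 GC box, as did 32.7% of the 32851 windows of all genes. By the gene positions given below, the windows of Pgf, Nrp1 and Flt4 lie inside the gene. Those of Kdr and Nrp2 reach into it. Of the core of the hypoxia response element, only the form ACGTG was searched for, on either strand. It was in 0 of the 9 windows and in 16.6% of all windows. The form GCGTG, which the Vegfb window above contains, was not counted. Of 11 textbook HIF target genes with a window, 9 held ACGTG in at least 1 of their windows. Each member was scored on 1 window only, also where it had more than 1 annotated start. A match of letters is a description of these windows, and elements farther from the start were not looked at.

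Levels of different genes were compared per length, as RPKM, the reads per kilobase of exon scaled to the total of reads on genes. Vegfa had the highest mean RPKM of the 9 members in each group, at 69.2 ± 5.30 (SD, n = 6) for young, 73.2 ± 1.93 for old and 120.7 ± 12.7 for rejuvenated old MSCs. Vegfb came next, with 61.5 ± 2.88, 35.7 ± 1.17 and 47.9 ± 2.51. The libraries of Vegfa and Vegfb overlapped in the young group and did not overlap in the other 2 groups. The neuropilins followed, with a mean RPKM of 7.00 for Nrp1 and 6.11 for Nrp2 in young MSCs (overlapping), and 23.6 and 16.5 in old MSCs (not overlapping). Vegfc was lower still in RPKM, at 3.64, 4.75 and 7.99 in young, old and rejuvenated old MSCs, and its rejuvenated old libraries overlapped those of Nrp2 (8.93). Pgf had a mean RPKM of 0.758, 3.34 and 2.85 in the same order. Kdr, Flt1 and Flt4 were the lowest of the 9 in all groups, with mean RPKM values of at most 0.373, and Kdr was the highest of them in young MSCs.

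**Figure D1:**
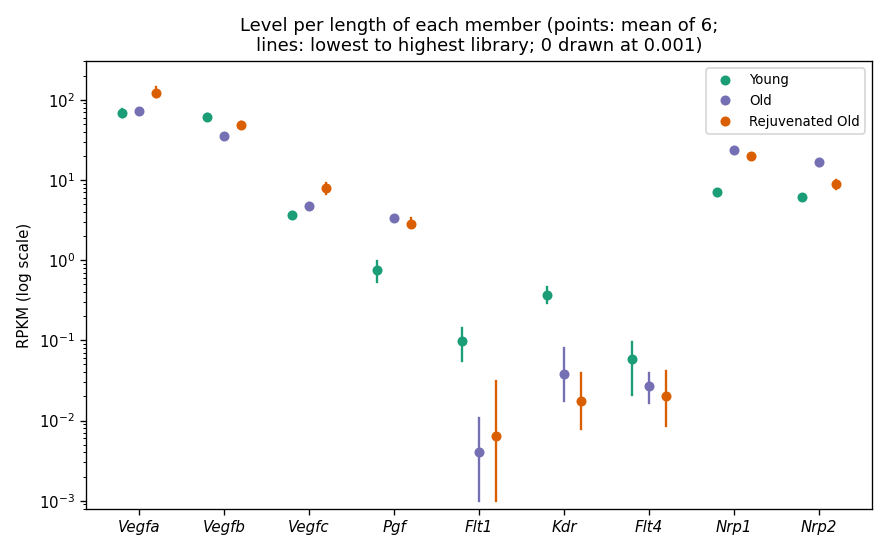
Mean RPKM of each member (points, log axis) with the lowest and highest of 6 libraries (lines), for young, old and rejuvenated old MSCs. Ligands and neuropilins lie above the receptor tyrosine kinases in every group, and a library at 0 reads is drawn at the bottom of the axis.

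The 4 ligand members summed to 135 ± 6.83 RPKM (SD, n = 6) for young, 117 ± 1.73 for old and 179 ± 14.1 for rejuvenated old MSCs. Vegfa made up 51.2% ± 2.03 of this sum for young, 62.6% ± 0.981 for old and 67.1% ± 2.11 for rejuvenated old MSCs. Vegfb made up 45.6% ± 1.92, 30.5% ± 1.11 and 26.8% ± 1.66, so that young MSCs had the most even mixture of both. With Vegfd, a further ligand that is not among the members, the sums were 394, 157 and 225 RPKM and the share of Vegfa in young MSCs was 17.5%. The 5 receptor genes summed to 13.6 ± 0.521 RPKM for young, 40.2 ± 1.32 for old and 28.6 ± 1.12 for rejuvenated old MSCs, and Nrp1 and Nrp2 together made up nearly all of it in each group. The share of Kdr in that sum was 2.74% ± 0.507 in young and 0.0934% ± 0.0554 in old MSCs.

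The comparisons asked which members differed with donor age (young against old), which changed in old MSCs after co-culture (rejuvenated old against old), and which still differed from young MSCs (rejuvenated old against young). Of the 9 members, 8 had a mean of at least 10 normalized counts and were tested with limma among 14353 genes. Flt1 and Kdr reached that mean only through their young libraries, so their differences from young MSCs are given as a description and they are not counted here. Fold changes are on the log2(normalized count + 1) scale. Between young and old MSCs, all 6 other members were called at an adjusted p under 0.05, where 85.7% of all genes were called. Vegfb was higher in young MSCs (41.6% of all genes were called higher), and Vegfa, Vegfc, Pgf, Nrp1 and Nrp2 were lower (44.1%). After co-culture 5 of the 6 were called, against 41.6% of all genes. Of these, Vegfa, Vegfb and Vegfc rose (21.0% of all genes) and Nrp1 and Nrp2 fell (20.6%). Between rejuvenated old and young MSCs 6 of 6 were called (85.6% of all genes), with 5 higher (44.1%) and 1 lower (41.5%) in rejuvenated old MSCs. These 3 comparisons share their libraries in pairs.

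**Figure D2:**
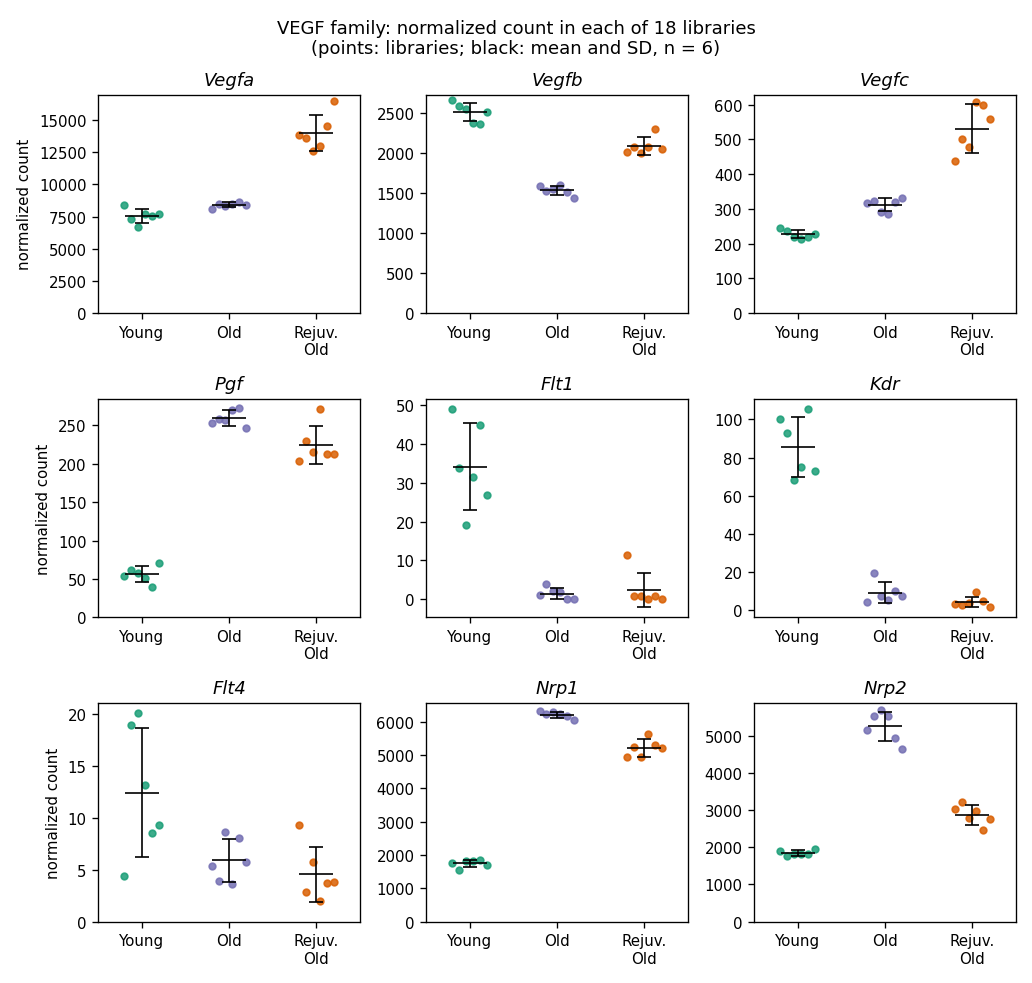
Normalized count of the 9 members (vertical axes, each gene on its own scale) in each of the 18 libraries (points), with the mean and SD of 6 libraries in black. Vegfa and Vegfc are highest in rejuvenated old MSCs, Vegfb, Flt1 and Kdr in young MSCs, and Pgf, Nrp1 and Nrp2 in old MSCs by their means.

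Vegfa, the main ligand of Kdr and Flt1 and the best known inducer of vessel growth, lies at chr17:46016993-46032369 on the minus strand. Its normalized counts had a lowest, median and highest value of 6699, 7607 and 8394 in young libraries, 8116, 8461 and 8665 in old libraries and 12624, 13725 and 16495 in rejuvenated old libraries. All rejuvenated old libraries were above all others, whereas young and old libraries overlapped. Vegfa rose by 0.73 ± 0.05 (SE) on the log2 scale after co-culture, a 1.66-fold difference (limma adjusted p = 2.92e-10). It was 0.89 ± 0.05 higher in rejuvenated old than in young MSCs (limma adjusted p = 2.46e-13). The difference of young from old MSCs was small, at −0.16 ± 0.05 (limma adjusted p = 0.00765), and was not called when libraries were scaled to the same total (−0.09, adjusted p = 0.154) or by quantiles (−0.10, adjusted p = 0.105).

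Vegfb, a ligand of Flt1 that is linked to metabolism and vessel survival more than to sprouting, lies at chr19:6982473-6987651 on the minus strand. The normalized counts (lowest, median and highest) were 2371, 2538 and 2672 in young, 1440.1, 1539.7 and 1599 in old and 1997, 2067 and 2302 in rejuvenated old libraries. The groups did not overlap, and rejuvenated old MSCs lay between the other two. Non-overlap of 6 and 6 libraries was found for 73.9% of all genes in young against old, 22.0% in rejuvenated old against old and 70.5% in rejuvenated old against young MSCs. Vegfb was 0.71 ± 0.04 (SE) higher in young than in old MSCs (1.64-fold, limma adjusted p = 4.60e-14) and rose by 0.44 ± 0.04 after co-culture (1.36-fold, limma adjusted p = 6.04e-09). It remained 0.27 lower in rejuvenated old than in young MSCs (−0.27 ± 0.04, limma adjusted p = 9.70e-07). Of the members called in all 3 comparisons, Vegfb was the only one that rose after co-culture and was also higher in young than in old MSCs.

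Vegfc, the ligand of Flt4 that drives growth of lymphatic vessels, lies at chr8:54077606-54187096 on the plus strand. Over its libraries, the lowest, median and highest normalized counts were 215, 224 and 246 in young, 286, 319 and 333 in old and 438, 531 and 609 in rejuvenated old libraries. The groups did not overlap, with rejuvenated old MSCs highest and young MSCs lowest. Vegfc rose by 0.76 ± 0.07 (SE) after co-culture (1.69-fold, limma adjusted p = 2.77e-08), and was 0.46 lower in young than in old MSCs (−0.46 ± 0.07, limma adjusted p = 5.23e-06). Rejuvenated old MSCs thus lay 1.21 ± 0.07 above young MSCs (2.32-fold, limma adjusted p = 3.66e-13).

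Pgf, placental growth factor, is a ligand of Flt1 that acts in inflamed and injured tissue, and lies at chr12:85166635-85177790 on the minus strand. Its lowest, median and highest normalized counts were 39.4, 56.3 and 71.0 in young, 247, 258 and 273 in old and 204, 215 and 271 in rejuvenated old libraries. Young libraries were all below the others, and old and rejuvenated old libraries overlapped. Pgf was −2.21 ± 0.11 (SE) in young against old MSCs (limma adjusted p = 3.84e-15), that is 4.64-fold higher in old MSCs. After co-culture its difference was −0.21 ± 0.11, with a 95% interval of −0.43 to 0.00 (limma adjusted p = 0.110). The latter was called when only old and rejuvenated old libraries entered the limma fit (adjusted p = 0.0228), by edgeR (adjusted p = 0.0460), by DESeq2 (adjusted p = 0.0214), and in limma without young replicate 5 (−0.21, adjusted p = 0.0466) or without rejuvenated old replicate 4 (−0.27, adjusted p = 0.0496).

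**Figure D3:**
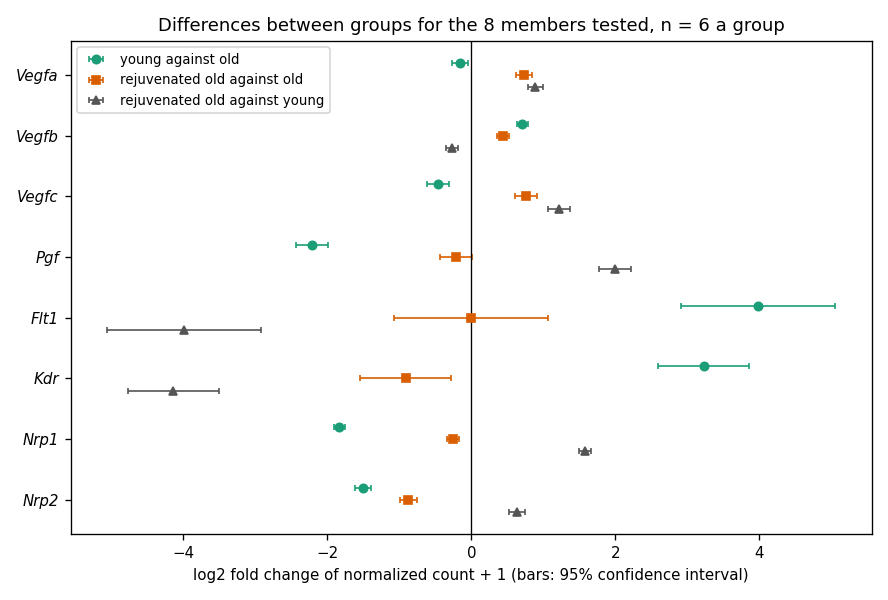
Log2 fold change of the 8 members tested (horizontal axis, with 95% confidence intervals from limma, n = 6 libraries a group) in young against old, rejuvenated old against old and rejuvenated old against young MSCs. Vegfa, Vegfb and Vegfc lie right of 0 after co-culture and Nrp1 and Nrp2 left of 0, and the intervals of Flt1 and Kdr are the widest.

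The receptor tyrosine kinases were scarce in these cultures. Kdr, the receptor through which VEGF-A drives endothelial growth, lies at chr5:75932827-75978458 on the minus strand. The normalized counts (lowest, median and highest) were 68.2, 83.8 and 106 in young, 4.30, 7.62 and 19.7 in old and 1.89, 3.45 and 9.66 in rejuvenated old libraries. Young libraries were all above the others, and the total was 490 reads over 6 young libraries against 55 in old and 27 in rejuvenated old libraries. Kdr was 3.23 ± 0.30 (SE) higher in young than in old MSCs on the log2 scale, given without a test. The fall after co-culture (−0.91 ± 0.30, limma adjusted p = 0.0200) was between overlapping groups. It was not called without old replicate 2 (−0.68, adjusted p = 0.0613), without rejuvenated old replicate 6 (−0.76, adjusted p = 0.0515), with a pseudocount of 10 (−0.39, adjusted p = 0.0502) or with only these 2 groups in the fit (adjusted p = 0.0535). Against young MSCs, rejuvenated old MSCs had a log2 difference of −4.14 ± 0.30.

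Flt1, a high-affinity receptor of VEGF-A, VEGF-B and PlGF that also exists as a soluble trap, lies at chr5:147561604-147726011 on the minus strand. Over its libraries, the lowest, median and highest normalized counts were 19.0, 32.6 and 49.0 in young, 0, 1.45 and 3.94 in old and 0, 0.938 and 11.3 in rejuvenated old libraries. The old libraries held 9 reads in all and the rejuvenated old libraries 14, of which 11 were in replicate 1, the library that stood apart. Flt1 was 3.98 ± 0.52 (SE) higher in young than in old MSCs and −3.99 ± 0.52 in rejuvenated old against young MSCs on the log2 scale, given without a test. A change after co-culture was not detectable at this depth, with a 95% interval of −1.07 to 1.07 for the log2 difference (limma adjusted p = 0.998). Without rejuvenated old replicate 1 that difference was −0.51 (limma adjusted p = 0.342).

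Flt4, the receptor of VEGF-C on lymphatic endothelium, lies at chr11:49609263-49652739 on the plus strand and was too low for the fit across genes. Its lowest, median and highest normalized counts were 4.35, 11.2 and 20.1 in young, 3.64, 5.57 and 8.62 in old and 1.93, 3.75 and 9.27 in rejuvenated old libraries. All groups overlapped. A two-sided exact permutation test over 924 splits, adjusted over 3 comparisons, gave a difference of 0.86 for young against old (p = 0.0411, adjusted 0.0617). The same exact test gave −0.38 for rejuvenated old against old (p = 0.253, adjusted 0.253) and −1.25 for rejuvenated old against young MSCs (p = 0.0152, adjusted 0.0455). Without rejuvenated old replicate 1 the latter differences were −0.59 and −1.45 (exact permutation test, adjusted p = 0.0628 and 0.0260). The last call was lost when any 1 of 5 young or 5 rejuvenated old libraries was left out, with adjusted p up to 0.0844, and the first was gained without young replicate 1 (1.10, exact permutation test, adjusted p = 0.0130).

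Markers of other cells stood beside these receptors as follows. Of 14 endothelial markers, 5 were tested, of which 3 were higher and 2 lower in young than in old MSCs (41.6% and 44.1% of all genes). Esam passed the filter only through its young libraries, so these counts are a description. After co-culture the 5 had limma adjusted p of 0.176 to 0.670, where 41.6% of all genes were called. Plvap averaged 149 normalized counts in young and 23.2 in old MSCs, Esam 29.6 and 7.20, and Vwf 51.8 and 127. Egfl7 averaged 134 in young and 186 in old MSCs. The lymphatic marker Lyve1 averaged 15.6 in young and 1.13 in old MSCs, and Prox1 was at or under 1.97 in every library. The endothelial markers Erg, at 28.8 in young and 0.151 in old MSCs, and Pecam1, at 17.0 and 6.56, were named after their values were seen. The part of such cells in the receptor levels was not tested.

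The neuropilins were the abundant VEGF receptors of these MSCs, and both fell after co-culture. Nrp1, which binds VEGF-A and Sema3a and strengthens signalling of Kdr, lies at chr8:128358604-128503363 on the plus strand. The normalized counts (lowest, median and highest) were 1557, 1781 and 1843 in young, 6049, 6219 and 6321 in old and 4935, 5223 and 5648 in rejuvenated old libraries, with no overlap between groups. Nrp1 was −1.83 ± 0.04 (SE) in young against old MSCs, so that old MSCs had 3.56-fold more (limma adjusted p = 6.01e-22). It fell by 0.25 after co-culture (−0.25 ± 0.04, limma adjusted p = 1.39e-05) and stayed 1.58 ± 0.04 above young MSCs (limma adjusted p = 1.02e-20). An annotated microRNA gene, Mir1903, shares 80 exon bases with Nrp1 on the same strand, which is 0.818% of its exon length.

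Nrp2, the co-receptor of Flt4 that binds VEGF-C and Sema3f, lies at chr1:62703285-62818695 on the plus strand. Over its libraries, the lowest, median and highest normalized counts were 1754, 1822 and 1961 in young, 4651, 5334 and 5678 in old and 2459.5, 2889.7 and 3205 in rejuvenated old libraries. The groups did not overlap, and rejuvenated old MSCs lay between the others. Nrp2 was −1.51 ± 0.05 (SE) in young against old MSCs (2.84-fold higher in old, limma adjusted p = 2.10e-17) and fell by 0.87 after co-culture (1.83-fold, limma adjusted p = 2.45e-11). Rejuvenated old MSCs were left 0.63 ± 0.05 above young MSCs (limma adjusted p = 2.27e-10). Relative to the median of chromosome 1, where Nrp2 lies, the difference of rejuvenated old from young MSCs was −0.06 and that of young from old MSCs −0.82.

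All 12 macrophage markers were called lower in young than in old MSCs, as were Nrp1, Nrp2 and Pgf. Beside the counts of this paragraph, 44.1% of all genes were lower and 41.6% higher in young MSCs. After co-culture 21.0% of all genes rose and 20.6% fell. Ptprc, Adgre1, C1qa, C1qb, C1qc, Fcgr1, Tyrobp and Itgam averaged under 10 normalized counts in young MSCs and passed the filter through the old groups. Their calls against young MSCs are therefore a description. Of these markers, 11 exceeded 100 normalized counts in a group (Ptprc, Cd68, Csf1r, Adgre1, Lyz2, C1qa, C1qb, C1qc, Cd14, Tyrobp and Itgam). Lyz2 averaged 173 in young and 10154 in old MSCs, and C1qa 0.172 and 1216. After co-culture, when both neuropilins fell, 10 of the 12 were not called, Itgam rose by 0.48 ± 0.13 and Cd68 fell by 0.32 (limma adjusted p = 0.00548 and 0.000102). The part of such cells in the levels of Nrp1, Nrp2 and Pgf was not tested. Of 8 pericyte and smooth muscle markers, 6 were lower and 2 higher in young MSCs, and 1 rose and 1 fell after co-culture. Acta2, Tagln, Notch3 and Des were lower in young MSCs, with Des at 28.3 against 2773 and Notch3 at 375 against 5209 normalized counts, and Cspg4 (160 against 21.5) and Mcam (146 against 96.1) were higher. After co-culture Tagln rose by 0.28 ± 0.04 and Notch3 fell by 0.22 (limma adjusted p = 4.77e-06 and 0.00433). Of 10 marrow stromal markers, 4 were higher and 6 lower in young MSCs, and after co-culture 2 rose, led by Ly6a (1.07 ± 0.10, limma adjusted p = 1.67e-08), and 4 fell, led by Col1a1 (−0.41 ± 0.05, limma adjusted p = 3.05e-07). The pericyte marker Rgs5 and the stromal marker Thy1 passed the filter only through groups where they were high. The counts of young against old MSCs for these lists are therefore a description.

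Genes of some chromosomes shifted together between young and old MSCs, so members are also given relative to the median of their chromosome. The part of such shifts in the differences of the members was not tested. For young against old MSCs, the median log2 change was −0.69 over 800 tested genes of chromosome 1, where Nrp2 lies, and −0.46 on chromosome 12, where Pgf lies. Relative to these medians, Nrp2 differed by −0.82 and Pgf by −1.76. Vegfa was −0.38 in young against old MSCs relative to a median of 0.22 on chromosome 17, and Nrp1 and Vegfc were −1.98 and −0.61 relative to chromosome 8. After co-culture the medians of the members' chromosomes were all near 0, and the fall of Nrp2 was −0.87 by either measure.

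**Figure D4:**
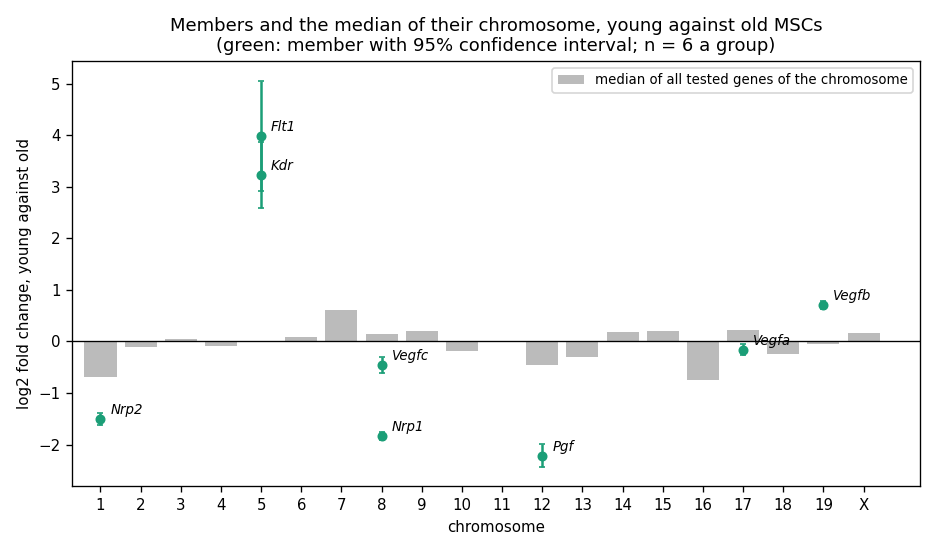
Log2 fold change of young against old MSCs (vertical axis) for the 8 members tested (green, with 95% confidence intervals, n = 6 libraries a group) and the median of all tested genes of each chromosome (grey bars, horizontal axis). Nrp2 and Pgf lie on chromosomes with medians of −0.69 and −0.46, and both lie below them.

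Vegfa is a classical target of hypoxia-inducible factors (HIF), which are transcription factors that prolyl hydroxylases mark for degradation when oxygen is present. Of 12 other textbook HIF target genes, 10 rose in old MSCs after co-culture and 1, Pfkfb3, fell, with a median log2 fold change of 1.02 (0.01 over all genes, of which 21.0% were called higher and 20.6% lower). The largest rises were those of Ndufa4l2, a mitochondrial protein induced by hypoxia, at 4.23 ± 0.06 (SE, limma adjusted p = 1.31e-23), and Ankrd37, at 2.25 ± 0.18 (limma adjusted p = 1.06e-09). Ndufa4l2 ran from 147 to 173 normalized counts in old and from 2686 to 3662 in rejuvenated old libraries. Vegfa, at 0.73, was below the median of this list. The list was chosen with earlier results of these data known, so its counts and median are a description.

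In young against old MSCs, 8 of the 12 HIF targets were higher and 4 lower (41.6% and 44.1% of all genes), with a median of 1.03, while Vegfa was −0.16. Ndufa4l2 was 3.81 ± 0.06 higher in young MSCs (limma adjusted p = 1.18e-24), whereas Adm, which encodes the vasoactive peptide adrenomedullin, was −4.17 ± 0.09 (limma adjusted p = 1.47e-21). Epas1, which encodes HIF-2α, averaged 61.1 ± 7.00 (SD, n = 6) normalized counts in young and 7351 ± 241 in old MSCs, a difference of −6.89 ± 0.07 (SE, limma adjusted p = 2.61e-27). Among 8 HIF factors and oxygen sensors, 2 rose and 3 fell after co-culture (21.0% and 20.6% of all genes). Those that rose were the prolyl hydroxylases Egln3, by 2.37 ± 0.11 (limma adjusted p = 2.57e-13), and Egln1, by 0.95 ± 0.05 (limma adjusted p = 2.67e-13), both themselves known to be induced by HIF. Egln3 was also 1.38 ± 0.11 higher in young than in old MSCs (limma adjusted p = 9.05e-11). Oxygen in the wells was not measured in these data.

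**Figure D5:**
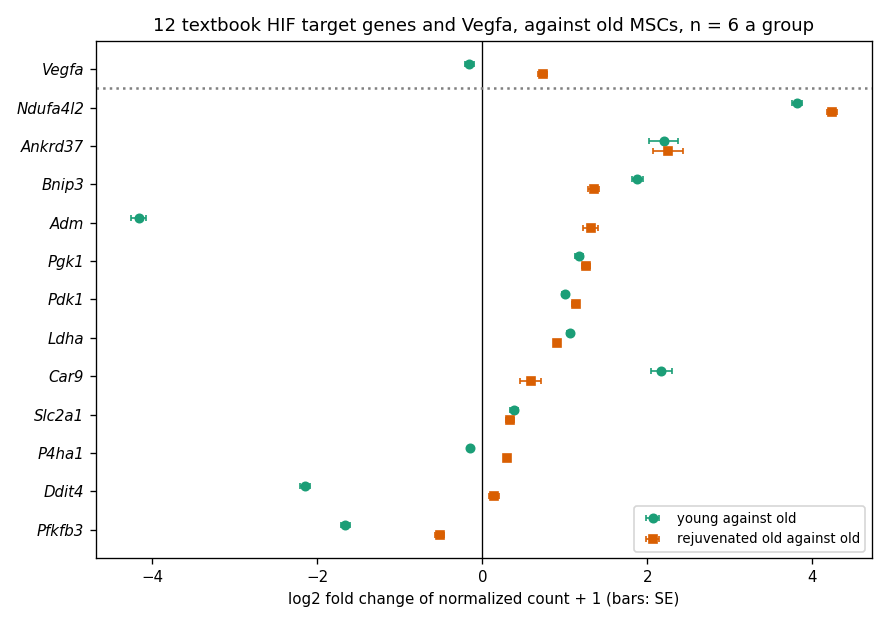
Log2 fold change (horizontal axis, bars are SE, n = 6 libraries a group) of 12 textbook HIF target genes and, above the dotted line, of Vegfa, for young against old and rejuvenated old against old MSCs. Most targets lie right of 0 in both comparisons, whereas Vegfa lies right of 0 only for rejuvenated old MSCs.

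Of 10 other transcription factors of VEGF genes, 1 rose and 2 fell after co-culture (median −0.07), where 21.0% of all genes rose and 20.6% fell. Atf4, the stress-response factor, rose by 0.32 ± 0.03 (limma adjusted p = 4.67e-08), and Foxc2, a factor of lymphatic development, fell by 0.19 (limma adjusted p = 0.0104). Between young and old MSCs 5 of these were higher and 4 lower (41.6% and 44.1% of all genes), among them the coactivator Ppargc1a, at 59.7 normalized counts in young and 2.32 in old MSCs, and Foxc2, at 200 and 832. Ppargc1a and Tfap2a passed the filter only through groups where they were high, so these counts of young against old MSCs are a description. Of 6 proteins that bind Vegfa mRNA, 1 rose and 2 fell after co-culture, beside the same shares of all genes. Zfp36, which destabilizes AU-rich mRNAs, rose by 0.37 ± 0.04 (limma adjusted p = 7.52e-07), its relative Zfp36l1 fell by 0.30 (limma adjusted p = 6.18e-07), and these were 1.82 ± 0.04 and −0.36 ± 0.04 in young against old MSCs.

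Of 19 tested genes that hold VEGF in the matrix, release it or process it, 13 fell and 2 rose after co-culture (median −0.29), where 20.6% of all genes fell and 21.0% rose. Between young and old MSCs 14 were lower and 5 higher in young MSCs (median −0.72), beside 44.1% and 41.6% of all genes. These counts include Adamts3 and Pcsk5, which passed the filter only through groups where they were high, and are a description. Adamts1, a protease of the matrix that also binds VEGF, rose by 1.02 ± 0.05 (limma adjusted p = 1.22e-12), and Mmp9 fell by 0.50 (limma adjusted p = 0.0245). Mmp2 averaged 1498 normalized counts in young and 45817 in old MSCs. Adamts3, the protease that activates VEGF-C, averaged 110 ± 15.9 (SD, n = 6) in young MSCs and at most 3.23 in any old library, and its cofactor Ccbe1, named after its values were seen, averaged 3255 and 108.

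Semaphorins compete with VEGF for neuropilins. Of 12 class 3 semaphorins and plexins, 5 were higher and 6 lower in young than in old MSCs, and 3 rose and 4 fell after co-culture. Sema3f and Sema3g passed the filter only through groups where they were high, so the counts of young against old MSCs are a description. Of all genes, 41.6% were higher and 44.1% lower in young MSCs, and 21.0% rose and 20.6% fell after co-culture. Sema3a, a ligand of Nrp1, averaged 12067 ± 357 (SD, n = 6) normalized counts in young and 170 ± 25.7 in old MSCs, and Sema3f, a ligand of Nrp2, 1194 ± 49.97 and 5.74 ± 2.60. The difference of Sema3a was 6.15 ± 0.21 (SE, limma adjusted p = 4.74e-18). Sema3f averaged under 10 in old MSCs and passed the filter through its young libraries, so its difference of 7.56 ± 0.26 is given without a test. Young MSCs thus had more Sema3a and Sema3f and less of both neuropilins. Of the other class 3 semaphorins listed, Sema3b and Sema3c had higher means in young MSCs. Sema3d, Sema3e and Sema3g had lower means, with Sema3e at 23.6 against 952 normalized counts in old MSCs. Sema3c, Sema3d, Sema3e and Sema3g were named after their values were seen. After co-culture Sema3f rose by 1.08 ± 0.26 (limma adjusted p = 0.00205), with 35.0 normalized counts in rejuvenated old replicate 1, the library that stood apart, and 9.31 to 10.6 in the other 5. Without that library it rose by 0.80 ± 0.19 to a mean of 10.04 (limma adjusted p = 0.00179). Sema3a in that library was at 514 normalized counts, beside 139 to 170 in the other 5. Sema3b rose by 0.81 ± 0.05 (limma adjusted p = 5.07e-11). The 5 plexins of the list, the signalling partners of neuropilins, were named after their values were seen. Plxna1, Plxna2 and Plxnd1 fell by 0.28, 0.71 and 0.50 after co-culture (limma adjusted p = 3.33e-06, 7.72e-10 and 2.14e-09), whereas Plxna3 rose by 0.24 ± 0.07 (limma adjusted p = 0.0113) and Plxna4 was not called (−0.39 ± 0.28, limma adjusted p = 0.288).

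Downstream of the receptors, 42 of 44 signalling genes were tested, and 17 were higher and 21 lower in young than in old MSCs (median −0.07), where 41.6% and 44.1% of all genes were. These counts include Hspb1, Prkcb and Nfatc2, which passed the filter only through groups where they were high, and are a description. After co-culture 6 rose and 14 fell (median −0.06), where 21.0% and 20.6% of all genes did. The largest changes called were those of the PI3-kinase subunit Pik3cb and the calcineurin subunit Ppp3ca, which fell by 0.42 and 0.37 (limma adjusted p = 0.00858 and 2.76e-08). Hspb1, a heat shock protein phosphorylated downstream of Kdr, averaged 1.73 normalized counts in young and 553 in old MSCs, and the kinase Prkcb 0.67 and 91.9. Nos3, the endothelial nitric oxide synthase through which VEGF dilates vessels, was at most 2.83 in any library and was not tested.

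Across the 18 libraries, the genes whose log2 values followed each member most closely were, by Pearson correlation, Chd7 (r = 0.985) and Lrrc32 (0.979) for Vegfa, Klf2 (0.983) and Nupr1 (0.982) for Vegfb and Omd (0.987) and Pdlim2 (0.984) for Vegfc. For Pgf they were Cd1d1 (r = 0.992) and Mmp12 (0.992), for Nrp1 Vcam1 (0.999) and Elmo2 (0.999), and for Nrp2 Klf9 (0.992) and Il1rn (0.991). For Flt1 they were E2f4 (r = 0.975) and Hmga1b (0.968), and for Kdr Pcdhb16 (0.973) and Edc3 (0.971). The libraries form 3 groups that differ in most genes, so these values describe the order of the groups as much as the libraries within them.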

How the data were processed

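RNA of 18 MSC cultures was sequenced from stranded mRNA libraries. According to the methods and processing notes, the authors aligned reads to mm10 with HISAT2, quantified genes with StringTie and featureCounts, and normalized counts with DESeq2. Versions, annotation and strand setting are not given in the sources used here. The deposited values are a signal for each gene and library, whole reads divided by 1 size factor, and reads were recovered for 100% of values (within 0.01 read). On the log2(value + 1) scale, limma 3.58.1 in R 4.3.3 was used with group means, a mean-variance trend and 14353 genes of mean at least 10. Benjamini-Hochberg adjusted p under 0.05 was called. RPKM used exon lengths of the GENCODE annotation of GRCm38, which also gave the gene positions. edgeR 4.0.16 and DESeq2 1.42.0 on recovered reads, other pseudocounts, filters and scalings, fits of 2 groups and omission of each library were alternatives. Python 3.11.15 with pandas 2.3.3 was used for summaries. The tests were also run on simulated counts in which few genes differed. Most genes differed between young and old MSCs, so that setting cannot show how the tests behave here. Against a group whose libraries all had 3 reads or fewer for a gene, no fold is given.

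The members and lists were chosen with earlier results of these data known. From each list other than the members, the text names the 2 called genes with the largest absolute fold change in rejuvenated old against old and in young against old MSCs, markers above 100 normalized counts, and, for each member tested, the 2 genes with the highest correlation. Pairs of replicates in a group differed by more than counting noise (chi-square per degree of freedom 2.57 to 23.3). The ELISA, HUVEC and RT-PCR data of the study were not analysed here.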

Additional observations from a re-analysis of the deposited data

Results flagged for a closer look

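In 4 of 27 sets of 6 libraries (9 members in 3 groups), 1 library stood apart from the other 5 by a gap above Dixon's 95% critical value for 6 samples. For normally distributed values chance alone would give such a gap in about 1 of 20 sets. Low counts, as of Flt1 and Kdr in both old groups, need not be so distributed, and that rate may not hold for them. Vegfb in rejuvenated old replicate 5 had 2302 normalized counts, beside 1997 to 2081 in the others, and all 6 libraries lay between the old and young groups. Flt1 in rejuvenated old replicate 1 had 11.3 normalized counts (11 reads) in the library that also stood apart over genes high in young MSCs, beside 0 to 0.951 in the others. Kdr in old replicate 2 had 19.7 normalized counts, beside 4.30 to 10.04 in the others, and in rejuvenated old replicate 4 it had 9.66, beside 1.89 to 4.66. Without old replicate 2 the difference of Kdr after co-culture was −0.68 and was not called (limma adjusted p = 0.0613).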

How the results depend on the processing

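The number of members called stayed within 1.5 times its main value in all 32 alternatives of each comparison. It was 6 to 9 in young against old and 5 to 7 in rejuvenated old against old MSCs. In rejuvenated old against young MSCs it was 6 to 9. Unlike the counts in the Results, these include Flt1 and Kdr where they passed the filter, and Flt4 with no filter. The main values so counted were 8, 6 and 8, where 85.7%, 41.6% and 85.6% of all genes were called. Of 786 alternative values of single members, 752 kept direction and call or moved by less than the spread between replicates, 7 lost the call, 5 gained it, 14 changed sign and 8 moved by more than that spread. The sign changes were those of Flt1 after co-culture, whose main difference was -0.0021 and which was called in none of its alternatives, and of Nrp2. For Flt1 they were 0.056 with a pseudocount of 10, 0.00041 with the same 75th percentile, 0.046 with quantile normalization, 0.55 with edgeR, and 0.62 with DESeq2. Without single libraries, where some kept the sign, the difference of Flt1 ran from −0.51 to 0.24. Without rejuvenated old replicate 1, an omission also run for the listed genes after seeing the data, 11 of 12 HIF targets rose and 1 fell. Of all 14353 genes, 3022 rose and 2973 fell in that fit. The call gained was that of Ddit4 (0.16 ± 0.06, limma adjusted p = 0.0490). Nrp2 in rejuvenated old against young MSCs was −0.058 relative to the median of its chromosome.

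Flt4 in young against old MSCs, tested by exact permutation, was called with the same total (0.93, adjusted p = 0.0487) and quantile normalization (1.12, adjusted p = 0.0227), and by limma with no filter (0.86, adjusted p = 0.0349), and ran from 0.70 to 1.10 without single libraries. In rejuvenated old against young MSCs its difference of −1.25 was not called at a threshold of 0.01, and ran from −1.48 to −1.09 without single libraries. The cause of these changes was not tested.

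Same-numbered replicates of different groups did not deviate together (r of −0.15 to 0.07, none of 18 over 0.1, 1 of 18 correlating best with its own number). The numbers thus gave no sign of pairing. Such a check cannot exclude shared donor mice, which the labels do not name. With a replicate block the members called, of 8 tested with Flt1 and Kdr included, were 8 in young against old MSCs. They were 6 in rejuvenated old against old and 8 in rejuvenated old against young MSCs. Of all 14353 genes, that fit called 5928 higher and 6291 lower in young against old MSCs. In rejuvenated old against old it called 2916 and 2853, and in rejuvenated old against young MSCs 6289 and 5921. With 9 to 195 reads in a group, Flt1 and, likewise, Flt4 are limited by depth.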

Other observations

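Vegfd, which encodes VEGF-D, the other lymphangiogenic ligand of Flt4, is not among the members and was looked at after its values were seen. It lies at chrX:164373378-164402650 on the plus strand. The lowest, median and highest normalized counts were 15295, 15936 and 16703 in young, 2428, 2620.2 and 2736 in old and 2653, 2950.2 and 3428 in rejuvenated old libraries. Young libraries were all above the others, and old and rejuvenated old libraries overlapped. Vegfd was 2.62 ± 0.05 (SE) higher in young than in old MSCs (6.14-fold, limma adjusted p = 1.32e-22) and rose by 0.21 ± 0.05 after co-culture (limma adjusted p = 0.00177). With Vegfd included, it made up 65.7% ± 1.54 (SD, n = 6) of the summed RPKM of VEGF ligands for young, 25.5% ± 0.924 for old and 20.4% ± 1.46 for rejuvenated old MSCs. The summed RPKM of the ligands was then 394 ± 8.63 for young, 157 ± 2.59 for old and 225 ± 16.8 for rejuvenated old MSCs, so young MSCs had the highest sum with Vegfd and rejuvenated old MSCs the highest without it.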
